A study of Bombus terrestris with 16 samples.

Results

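Among the 10635 genes in the deposited expression table of bumblebee guts, 4 genes of cytochrome P450 enzymes annotated in insect hormone metabolism are described here. They are a pair annotated as CYP15A1 (XM_003396659.1, LOC100642209, and XM_003396620.1, LOC100647578), an ecdysteroid 2-hydroxylase (XM_003394564.1, LOC100644009) and a CYP18A1 (XM_003400126.1, LOC100642897). They were chosen by their annotation and by their levels, since all 4 were known to be high in the same 2 of the 16 libraries, so those levels are given below as a description. Tests were made in the other 14 libraries, and values over all 16 are set beside them as a description.

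Insect hormone synthesis runs through 2 routes that use cytochromes P450. Juvenile hormone is built from the mevalonate pathway in the corpora allata, a pair of glands behind the brain, and CYP15A1 is the epoxidase of its last steps in cockroaches. Ecdysteroids are made from dietary sterols by a chain of P450 enzymes that includes the 2-hydroxylase, and in Drosophila CYP18A1 inactivates the finished hormone by oxidising its side chain. In adult bumblebees juvenile hormone is known for its part in ovary activation. The gut is a target of both hormones in insects, while the glands that make them lie outside it.

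The guts came from Bombus terrestris workers, a bumblebee, in a design that crossed 4 colonies, labelled K, L, S and T, with 4 exposures. Workers met Crithidia bombi, a trypanosome of the bumblebee gut, as genotype 068, 075 or 161, or were controls. Each library held poly(A) RNA of 3 pooled workers, 7 d old and killed 18 h after exposure, and there was 1 library for each colony and exposure. Each exposure and each colony therefore had 4 libraries, spread between single workers was not measured, and within a colony an exposure had no replicate. Libraries are named here by colony and exposure, as in S 075 or K control.

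The gut identity of the libraries was clear from digestive enzymes, though K control lay below the range of the others for them. The 55 genes of the gut list (glucosidases, trypsins, chymotrypsins, carboxypeptidases, chitinases and 1 neurotrypsin that matched by wording) summed to 90900 RPKM in S 075 and 67400 RPKM in K control, against 71400 to 95200 RPKM in the other 14 libraries. RPKM is the read count scaled by transcript length and library total, and it is used here to compare genes. The 18 cell division genes (cyclin B, aurora, polo-like kinases, MCM proteins) summed to 85.5 RPKM in S 075 and 138 RPKM in K control, against 29.5 to 75.5 RPKM in the other 14. K control held the highest level of 14 of these 18 genes, and none of the 18 was at 0 in every library. The hemocyte list matched only integrins and an integrin-linked kinase, with no hemocytin, hemolectin or phenoloxidase. It summed to 40.6 RPKM in S 075 and 57.2 RPKM in K control, against 27.6 to 45.4 RPKM, while the nervous system list stood at 91.6 and 97.7 RPKM, against 70.8 to 95.2 RPKM. Both libraries lay within the range of the others for muscle (524 and 507 RPKM, against 477 to 682 RPKM). The same held for the Malpighian tubule list of V-type proton pump genes (2650 and 2750 RPKM, against 1880 to 3210 RPKM). For the glands that make the hormones the 1 gene matched was an allatostatin receptor, at 2.68 RPKM in both S 075 and K control and 1.46 to 2.89 RPKM elsewhere. The part of these cell and tissue differences in the levels below was not tested. No description matched the lists of germ line and ovary or of fat body, so RNA of those tissues could not be looked for. K control was the highest library for 14.5% of the 8406 genes tested over 16 libraries, and L 161 for 18.1%. In pooled tissue, more cells of a type and more RNA per cell cannot be told apart.

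The 4 genes shared 1 order at the top. K control was highest and S 075 second for each of them, a pair of ranks held by 387 of the 8406 genes (4.6%). This order is what brought them together, so nothing is read from that comparison. On the RPKM scale the 2-hydroxylase was the most abundant of the 4 in both libraries, at 21.9 RPKM in S 075 and 56.7 RPKM in K control. CYP15A1-annotated LOC100642209 followed at 12.3 and 32.2 RPKM, LOC100647578 at 5.11 and 10.5 RPKM, and the CYP18A1 gene at 2.17 and 7.44 RPKM. Their medians over the other 14 libraries were 0.547, 0.102, 0.656 and 0.205 RPKM in the same order of genes. The order of the genes thus differed between the 2 libraries and the rest. LOC100642209 was second of the 4 in S 075 and K control and last in the median of the 14, where LOC100647578 was first. By share of reads, S 075 and K control held 92.8% of all reads of LOC100642209 and 74.8% of those of both the 2-hydroxylase and the CYP18A1 gene, but 46.3% of those of LOC100647578.

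**Figure D1:**
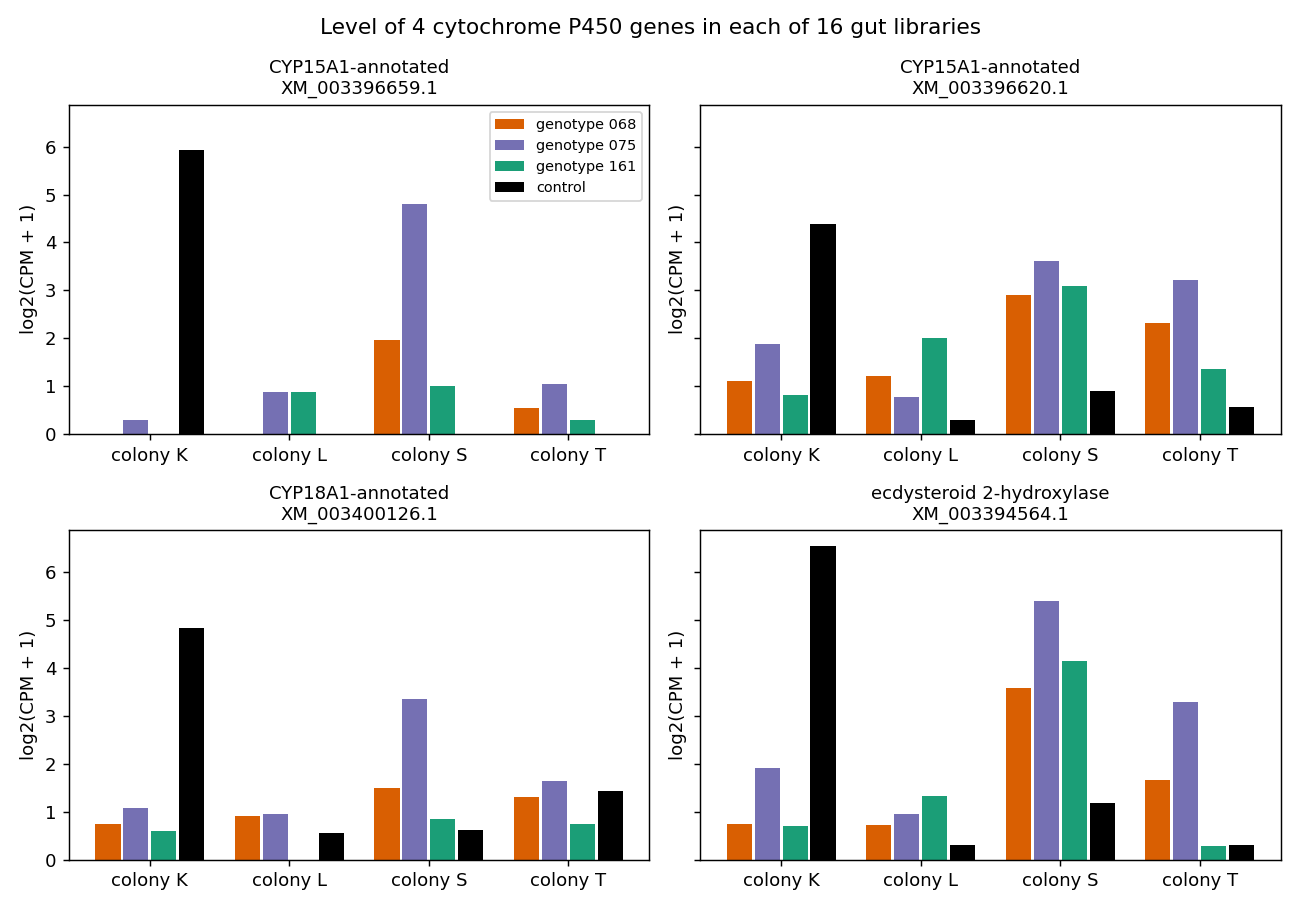
Level of the 4 genes in each of 16 gut libraries, as log2(CPM + 1) by colony, with a bar for each exposure and the control last. K control has the tallest bar for every gene and S 075 the second tallest, while the other colony S and T exposed libraries stand above their controls for the CYP15A1-annotated LOC100647578.

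LOC100642209 is the better match of the pair to its annotation, with a deposited KEGG hit score of 888. In CPM, read counts scaled to library size by TMM and used here within a gene, it had 0, 0.223 and 0 in K 068, K 075 and K 161, against 60.5 in K control. In colony L it had 0, 0.828 and 0.828 after genotypes 068, 075 and 161, against 0 in the control. Colony S gave 2.93, 26.9 and 1.01, against 0 in its control, and colony T gave 0.455, 1.06 and 0.223, against 0. Most guts thus had few or no reads of it, with 6 of the 14 other libraries at 0 reads and none of these above 26 reads. A count of 0 allows up to 3 reads, which is 0.297 to 0.414 CPM depending on the library. The 247 reads of S 075 covered 88.2% of the transcript, and the 612 reads of K control covered 97.7%. In S 075 the level was at least 84.3-fold higher than in S control at that floor, and in K 068 and K 161 it was at least 177-fold and 161-fold lower than in K control.

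LOC100647578 carries the same name on a weaker match, with a score of 329. It had 1.14, 2.68 and 0.753 CPM in K 068, K 075 and K 161, against 20 CPM in K control. In colony L the values were 1.32, 0.709 and 3.04 CPM after genotypes 068, 075 and 161, against 0.232 CPM in the control. Colony S gave 6.53, 11.2 and 7.57 CPM, against 0.850 CPM in S control, and colony T gave 3.99, 8.28 and 1.56 CPM, against 0.487 CPM in T control. This was the gene of the 4 in which S 075 stood least apart, 1.35 times the third library, T 075. In colonies L, S and T each exposed library lay above the control of its own colony, and in colony K each lay below. The counts behind it were 6 to 103 reads in the 12 exposed libraries, against 2, 8 and 4 reads in L, S and T control and 202 in K control.

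The 2-hydroxylase gene had 0.683, 2.79 and 0.627 CPM in K 068, K 075 and K 161, against 92.9 CPM in K control. In colony L it had 0.662, 0.946 and 1.52 CPM after genotypes 068, 075 and 161, against 0.232 CPM in the control. Colony S gave 11, 41.6 and 16.8 CPM, against 1.27 CPM in S control, and colony T gave 2.16, 8.81 and 0.223 CPM, against 0.244 CPM in T control. It had the widest range of the 4 genes, and the exposed guts of colony S were its highest libraries after K control. Reads covered 98.7% of the transcript in S 075, 95.8% in S 068 and 94.2% in S 161, against 43.1% in S control, and 99.5% in K control. T 161 and T control had 2 reads each and could not be told apart at this depth.

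The CYP18A1 gene, with the strongest match of the 4 at a score of 1046, had 0.683, 1.12 and 0.502 CPM in K 068, K 075 and K 161, against 27.4 CPM in K control. In colony L it had 0.883, 0.946 and 0 CPM after genotypes 068, 075 and 161, against 0.463 CPM in the control. Colony S gave 1.80, 9.25 and 0.807 CPM, against 0.531 CPM in S control, and colony T gave 1.48, 2.12 and 0.670 CPM, against 1.70 CPM in T control. Outside S 075 and K control it stayed at or below 2.12 CPM, and exposed libraries and controls overlapped. Its spread over the 14 libraries, an SD of 0.44 on the log2(CPM + 1) scale, was the smallest of the 4, against 0.59 for LOC100642209, 0.97 for LOC100647578 and 1.28 for the 2-hydroxylase. Among all genes tested these SDs were larger than those of 80.3% of genes for CYP18A1, 92.6% for LOC100642209, 98.3% for LOC100647578 and 99.4% for the 2-hydroxylase.

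Whether exposure moved the genes was tested in 14 libraries, without S 075 and K control. Colony K then had no control, so the fitted differences set exposed guts against controls within colonies L, S and T. The CPM means given beside them include the exposed guts of colony K. Leaving out the 1 control known to be high sets the direction of such a contrast, so that direction supports nothing by itself. Over 14 libraries no gene of 8417 passed the threshold, an adjusted p of 0.05 in edgeR's quasi-likelihood test with colony as a factor (0.0% called), and none of the 4 did. An unadjusted p under 0.05 was reached by 435 genes, while DESeq2 called 22 genes (0.261%) and limma-trend 0. LOC100647578 averaged 3.41 ± 2.81 CPM in 11 exposed libraries and 0.523 ± 0.311 CPM in 3 controls (SD). Its log2 difference was 3.13 ± 0.66 (SE) with an edgeR adjusted p of 0.406, and DESeq2 called it at 3.15 with an adjusted p of 0.00308. With at most 8 reads in these controls, it passed the count filter through exposed libraries, and without the filter the edgeR adjusted p was 0.188. For the 2-hydroxylase the means were 4.21 ± 5.52 CPM in exposed guts and 0.583 ± 0.599 CPM in controls. This gave a log2 difference of 3.53 ± 0.79 in edgeR (adjusted p = 0.413) and of 3.40 in DESeq2 (adjusted p = 0.00699), with an edgeR adjusted p of 0.208 without the filter. With 2 to 12 reads in these controls, the 2-hydroxylase also passed the count filter mainly through exposed libraries. LOC100642209 averaged 0.687 ± 0.848 CPM in exposed guts and had no read in the 3 controls, which at a floor of 3 reads per library puts the exposed mean at least 2.0-fold higher, or at least 1.35-fold without S 068. It passed the count filter through exposed libraries alone and did not pass without S 068 or S 161. This difference is therefore a description, and its fitted exposure difference in the 14 libraries is not used. The CYP18A1 gene averaged 1.0 ± 0.605 CPM in exposed guts and 0.900 ± 0.698 CPM in controls, with a log2 difference of 0.30 ± 0.55 (edgeR adjusted p = 1). Beyond these 4, 52.4% of all genes tested had a higher fitted level in exposed guts, with a median log2 difference of 0.01.

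With all 16 libraries, and so with the values by which the genes were chosen, the fitted log2 difference was -0.03 for LOC100647578, -1.61 for the 2-hydroxylase, -2.63 for LOC100642209 and -1.82 for CYP18A1, given as a description with no test. The direction of each of these contrasts thus hung on the K control library. In that fit edgeR called 0 of 8406 genes (0.0%), 263 had an unadjusted p under 0.05, and no other tool was run on it. An exact two-sided permutation of labels within colonies, on log2(CPM + 1), gave p = 0.0208 for LOC100647578 in the 14 libraries, the smallest p that its 48 relabellings can give, at a mean difference of 1.63. The same exact test within these colonies gave p = 0.0625 for the 2-hydroxylase, 0.0833 for LOC100642209, a test that needs no count filter, and 0.646 for CYP18A1. LOC100642209 had no read in any control of these colonies. K control is left out here too, so these p-values support no direction by themselves.

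**Figure D2:**
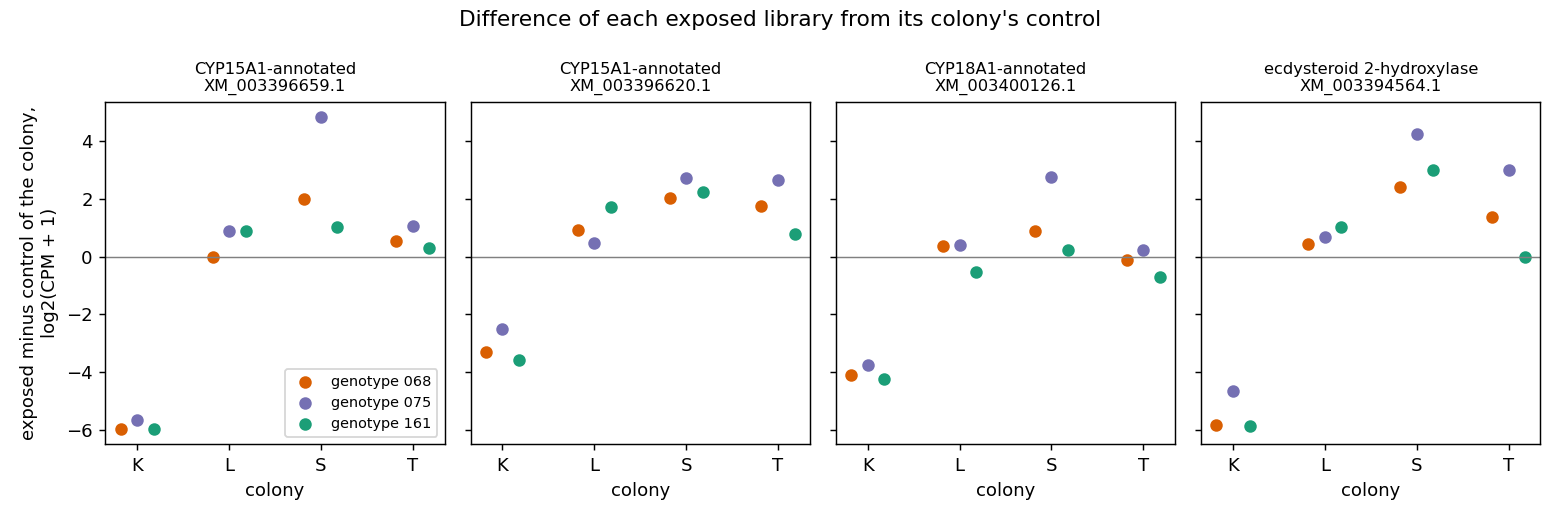
Difference of each exposed library from the control of its colony, in log2(CPM + 1), by colony and genotype for each gene. Every point of colony K lies below 0, between -5.94 and -2.51, and every point of colony S above 0, between 0.24 and 4.80.

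Within colonies, the differences in colony K all rest on the K control level by which the genes were chosen, and they restate it. The mean difference of the 3 exposed libraries from their control was -3.13 for LOC100647578 in colony K, against 1.03 in colony L, 2.32 in colony S and 1.73 in colony T, on the log2(CPM + 1) scale. The 2-hydroxylase had -5.43 in colony K, 0.71 in L, 3.20 in S and 1.44 in T. LOC100642209 had -5.84, 0.58, 2.59 and 0.62 in the same order of colonies. CYP18A1 had -4.02 in K, 0.07 in L, 1.28 in S and -0.21 in T, where 1 of 3 exposed libraries lay above the control. With 1 control per colony, these differences carry the error of that control 3 times over.

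The genotypes were then set against controls one by one, in the same 14 libraries, in which genotype 075 lacks colony S and colony K lacks its control. The 2-hydroxylase averaged 3.63 ± 4.98 CPM after genotype 068, 4.18 ± 4.11 CPM after 075 and 4.80 ± 8.05 CPM after 161 (SD, n = 4, 3 and 4), against 0.583 ± 0.599 CPM in 3 controls. LOC100647578 averaged 3.24 ± 2.55, 3.89 ± 3.93 and 3.23 ± 3.04 CPM after 068, 075 and 161, against 0.523 ± 0.311 CPM. In both genes the spread between colonies after the same genotype was as large as the mean or close to it. LOC100642209 averaged 0.845 ± 1.40, 0.704 ± 0.433 and 0.515 ± 0.480 CPM after 068, 075 and 161, against 0 CPM in each control. CYP18A1 averaged 1.21 ± 0.518, 1.40 ± 0.636 and 0.495 ± 0.353 CPM, against 0.900 ± 0.698 CPM, so that genotype 161 alone had a lower mean than the controls.

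None of the 4 genes passed edgeR's threshold against control for any genotype, and neither did any other gene (0.0% called each). Unadjusted p-values under 0.05 went to 348 genes for genotype 068, 605 for 075 and 232 for 161, and limma-trend called 0 for each. For genotype 075 the log2 difference was 4.71 ± 0.89 for the 2-hydroxylase (edgeR adjusted p = 0.177) and 3.65 ± 0.76 for LOC100647578 (adjusted p = 0.232). DESeq2 called both, at 4.58 with an adjusted p of 0.000476 and at 3.66 with 0.00425, among its 28 calls (0.333%). In edgeR both passed once L 161 was left out as well, at 4.97 and 3.76 with an adjusted p of 0.0414 each, among 10 of 8406 genes called (0.119%). The 2-hydroxylase also passed without T 161, at 4.45 with an edgeR adjusted p of 0.0317, among 5 of 8399 (0.0595%). For genotype 068 the log2 differences of these 2 genes were 2.89 ± 0.85 and 2.85 ± 0.70 (edgeR adjusted p = 0.827 each), and for genotype 161 they were 2.99 ± 0.85 and 2.90 ± 0.71 (0.998 each). DESeq2 called neither for 068 or 161, where it made 8 calls (0.095%) and 1 call (0.0119%). All of these contrasts share the same 3 control libraries and leave out K control, so their direction supports nothing by itself. With K control in the fit, the differences of these 2 genes turned negative, except that of LOC100647578 for genotype 075. LOC100647578 passed the count filter through exposed libraries and the 2-hydroxylase mainly through them, so these calls support nothing by themselves.

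Between the 3 genotypes, edgeR called 0 of 8417 genes (0.0%), 207 had an unadjusted p under 0.05, and DESeq2 and limma-trend called 0. The 2-hydroxylase was the 1 gene of the 4 with an unadjusted p under 0.05, at 0.0303 in edgeR (adjusted p = 1). In all 4 genes T 075 was above T 068 and T 161, and K 075 above K 068 and K 161, though for LOC100642209 in colony K this rests on 2 reads against 0. Colony L did not share that order for LOC100647578 and the 2-hydroxylase, where L 161 was highest of its exposed libraries. For LOC100642209, L 075 and L 161 were level at 0.828 CPM. CYP18A1 kept the order, at 0.946 CPM in L 075, 0.883 CPM in L 068 and 0 CPM in L 161.

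The colonies were compared in the same 14 libraries. Leaving out K control and S 075, whose high values chose the genes, lowers the means of colonies K and S. The order of the colonies therefore supports nothing by itself. With those libraries the 2-hydroxylase averaged 24.2 CPM in colony K and 17.7 CPM in colony S. Without them it averaged 9.72 ± 7.87 CPM in colony S (SD, n = 3), 2.86 ± 4.07 CPM in colony T (n = 4), 1.37 ± 1.23 CPM in colony K (n = 3) and 0.839 ± 0.539 CPM in colony L (n = 4). In the 14 libraries edgeR called it between the 4 colonies with an adjusted p of 0.0263, as 1 of 60 genes (0.713%), and DESeq2 called it among 310 (3.68%). Over all 16 libraries it was not among the 39 genes called (0.464%). The call was also lost without any 1 of K 068, K 075, K 161, S control, S 068, S 161 or T control, where the adjusted p ran from 0.0551 to 0.262, and in limma-trend, at 0.141. LOC100647578 averaged 4.98 ± 3.61 CPM in colony S, 3.58 ± 3.46 in T, 1.52 ± 1.02 in K and 1.33 ± 1.22 in L. Its adjusted p was 0.167 in edgeR, 0.0222 in DESeq2 and 0.0244 in edgeR without L 161, where 119 genes were called (1.42%). Neither LOC100642209 (edgeR adjusted p = 0.274) nor CYP18A1 (0.527) passed. The summed level of the cell division genes in the same 14 libraries was 52.7 to 75.5 RPKM in colony S, against 29.5 to 61.8 RPKM in the other colonies, and its part in the colony difference was not tested.

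How the 4 genes moved with each other was examined over the 14 libraries, in 6 pairs, on log2(CPM + 1). LOC100647578 and the 2-hydroxylase ran closest, with a Pearson r of 0.91 and a Spearman rho of 0.80 (permutation p = 4e-05 and 0.00103, adjusted 0.00024 and 0.00318). The adjacent CYP15A1-annotated pair had r = 0.77 and rho = 0.79 (permutation p = 0.00106 and 0.00117, adjusted 0.00212 and 0.00318). LOC100642209 and the 2-hydroxylase had r = 0.79 and rho = 0.78 (permutation p = 0.00104 and 0.00159, adjusted 0.00212 and 0.00318). Without the 2 libraries farthest from the median of the first gene of each pair, r was 0.86, 0.69 and 0.66, and on deviations from colony means it was 0.94, 0.77 and 0.77. The libraries share colonies and exposures, so they are not fully independent points.

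The 3 pairs that include CYP18A1 did not pass on this scale. Its r was 0.36 with LOC100642209, 0.41 with LOC100647578 and 0.42 with the 2-hydroxylase, with rho of 0.45, 0.41 and 0.46 (permutation p = 0.212, 0.148 and 0.134 for r and 0.108, 0.146 and 0.101 for rho, adjusted 0.178 to 0.212 and 0.130 to 0.146). Without the 2 farthest libraries r was -0.14, 0.29 and 0.37. On log2(RPKM + 1) the pair of CYP18A1 and LOC100647578 reached r = 0.57 with an adjusted permutation p of 0.0473. With S 075 and K control added, r over 16 libraries was between 0.74 and 0.92 for these 3 pairs, which the choice of the genes brings about.

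**Figure D3:**
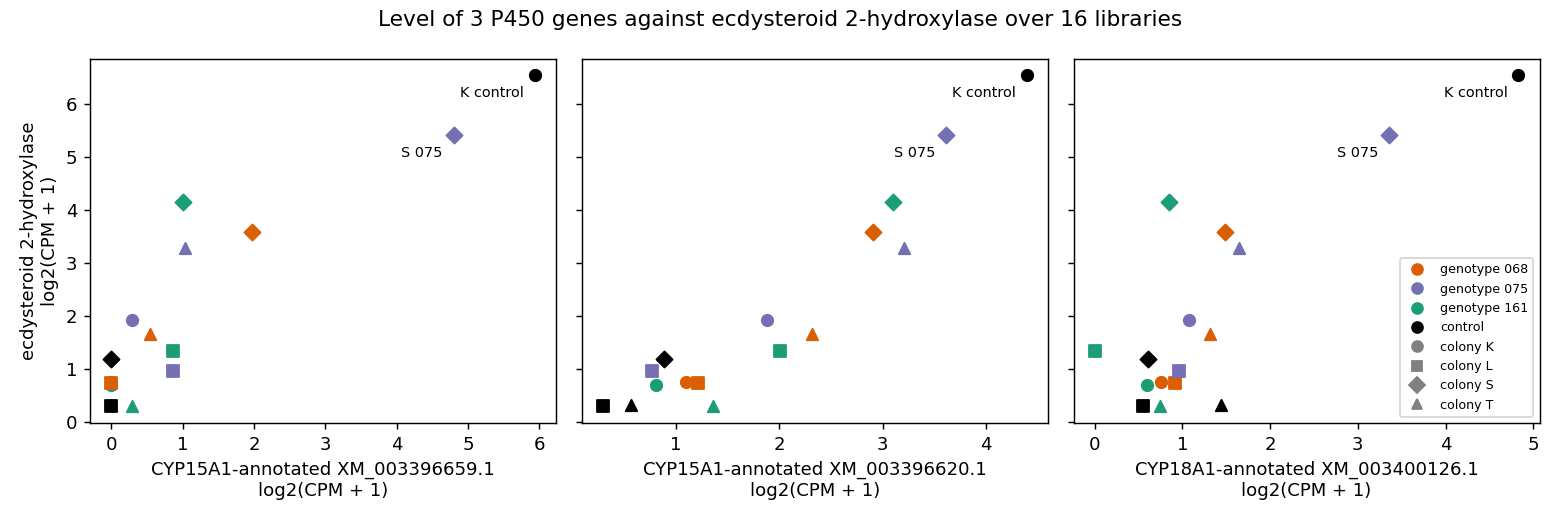
Level of the 2-hydroxylase gene (vertical axis) against the other 3 genes (horizontal axes) in 16 libraries, both as log2(CPM + 1), with colour for exposure and shape for colony. S 075 and K control lie at the upper right in each panel, and the other 14 libraries follow a slope for both CYP15A1-annotated genes (r = 0.79 and 0.91) that is weaker for CYP18A1 (r = 0.42).

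The CYP15A1-annotated genes are direct neighbours on chromosome 7 in the order of the RefSeq assembly iyBomTerr1.2, which is not stated to be the build of the deposited table. The gene next to them on one side, for U3 small nucleolar RNA-associated protein 20 (XM_003396573.1), had 28.9 CPM in S 075 and 28.2 CPM in K control, against 20 to 37.2 CPM in the other 14 libraries. The one on the other side, for TFIID subunit 15 (XM_003396455.1), stayed at or below 0.232 CPM. The high levels in S 075 and K control were thus seen in the pair and not in either flanking gene. Of the 4 records annotated CYP15A1 in the table, the remaining 2 did not pass the count filter. XM_003396954.1 had the same top order at a far lower level, with 0.870 CPM in S 075 and 1.09 CPM in K control against at most 0.675 CPM elsewhere, and XM_003397301.1 stayed at or below 0.473 CPM, with no read in K control. Beside the CYP18A1 gene on chromosome 13 lies CYP306A1 (XM_003400268.1), the ecdysteroid 25-hydroxylase of the synthesis route. It had 0.544 CPM in S 075 and 1.29 CPM in K control, against 0 to 1.58 CPM elsewhere. The 2-hydroxylase gene on chromosome 3 lies between a dual specificity phosphatase gene (XM_003394565.1), with 31.8 and 30.3 CPM in S 075 and K control against 10.9 to 29.3 CPM, and an undescribed gene (XM_003394563.1), with 16.3 and 18.0 CPM against 11.3 to 16.3 CPM. Both of these neighbours were at or above the top of their range in the 2 libraries, by far less than the 2-hydroxylase gene itself.

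Genes of both hormone routes were examined as lists drawn up from the deposited descriptions. The ecdysteroid list includes the 2-hydroxylase and the CYP18A1 gene, and the juvenile hormone list includes the CYP15A1-annotated pair. Counts from these 2 lists therefore include the chosen genes. Of all genes tested, 52.4% had a fitted level above control in the 14 libraries and 44.1% in the 16. None of their genes passed edgeR's threshold for exposure in 14 or 16 libraries. In the ecdysteroid list 5 of 6 genes were tested, of which 4 had a fitted level above control in the 14 libraries (median log2 difference 0.57) and 0 in the 16 (median -0.20). CYP302A1 (XM_003394690.1), the 22-hydroxylase of the route, was highest in the same pair of libraries as the 4 genes, at 9.14 CPM in S 075 and 12.5 CPM in K control, against 1.39 to 5.84 CPM. CYP307A (XM_003400613.1), an early enzyme of the route, had 2.07 and 2.37 CPM, against 0.138 to 2.65 CPM. Ecdysone 20-monooxygenase (XM_003395584.1), which makes the active hormone and is known from peripheral tissues, was well expressed throughout, at 62.6 CPM in S 075 and 66.7 CPM in K control, against 53.0 to 88.9 CPM. In this list 3 of the 5 tested genes had K control first and S 075 second. Of these 3, the 2-hydroxylase and CYP18A1, which acts on the finished hormone, were chosen for that order. CYP302A1 was named after its values were seen, so nothing is read from this count.

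In the juvenile hormone list 7 of 15 genes were tested, of which 5 were above control in 14 libraries (median 0.37) and 3 in 16 (median -0.03). Juvenile hormone epoxide hydrolase (XM_003397843.1), which breaks the hormone down, was the most abundant, at 538 CPM in S 075 and 484 CPM in K control, against 483 to 706 CPM. A juvenile hormone esterase (XM_003399691.1), another enzyme of breakdown, had 123 and 106 CPM, against 81.4 to 160 CPM. Neither followed the CYP15A1-annotated pair, the 2 of the 7 tested genes with K control first and S 075 second. The mevalonate list, which supplies the precursor, had 9 of 10 genes tested, 6 above control in 14 libraries (median 0.01) and 5 in 16 (median 0.08). Its rate-limiting enzyme, HMG-CoA reductase (XM_003392968.1), had 85.0 CPM in S 075 and 105 CPM in K control, against 62.6 to 94.7 CPM, so that K control lay just above the range. The acetyl-CoA C-acetyltransferases of the first step had 451 and 387 CPM against 306 to 639 CPM (XM_003393806.1) and 49.1 and 56.1 CPM against 34.8 to 57.7 CPM (XM_003393010.1).

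On the side of hormone response, the list of nuclear and hormone receptors had 24 of 35 genes tested, with 5 above control in 14 libraries (median -0.13) and 7 in 16 (median -0.07). One ecdysone receptor record (XM_003401619.1), the nuclear receptor that binds ecdysteroids, had 17.0 CPM in S 075 and 25.9 CPM in K control, against 14.5 to 33.1 CPM. NR4A2 (XM_003400042.1), an orphan nuclear receptor chosen here after its values were seen, was the 1 of the 24 tested genes with K control first and S 075 second, at 14.7 and 19.8 CPM against 1.25 to 4.84 CPM. The best expressed of the list, thyroid hormone receptor interactor 10 (XM_003394245.1), had 104 and 98.0 CPM, against 91.9 to 143 CPM. That gene matched by wording and is not a receptor. A nuclear receptor of subfamily 5 group A (XM_003394774.1), the FTZ-F1 type, followed with 60.0 and 44.7 CPM, against 50.8 to 154 CPM.

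Among the other cytochromes P450, 31 of 46 genes were tested, of which 13 were above control in 14 libraries (median -0.07) and 16 in 16 (median 0.02). A family 28 gene (XM_003393818.1) was called between colonies by edgeR, with an adjusted p of 0.00387 in 14 libraries and 0.00197 in 16. The most abundant, a family 6 gene (XM_003400083.1) of a family known for detoxification, had 2090 RPKM in S 075 and 1460 RPKM in K control, against 1270 to 2180 RPKM in the other libraries. Next came a family 9 gene (XM_003393328.1), with 888 RPKM in S 075 and 1470 RPKM in K control, against 663 to 1360 RPKM. Beside them the 2-hydroxylase reached 21.9 and 56.7 RPKM. The P450 reductase (XM_003401741.1), which passes electrons to microsomal P450 enzymes, had 535 CPM in S 075 and 523 CPM in K control, against 421 to 727 CPM. The ferredoxin-NADP reductase (XM_003394087.1), the redox partner of mitochondrial P450 enzymes, had 10.8 and 14.7 CPM, against 7.17 to 14.3 CPM. Of the 31 other P450 genes 1 had K control first and S 075 second, CYP302A1 as above.

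**Figure D4:**
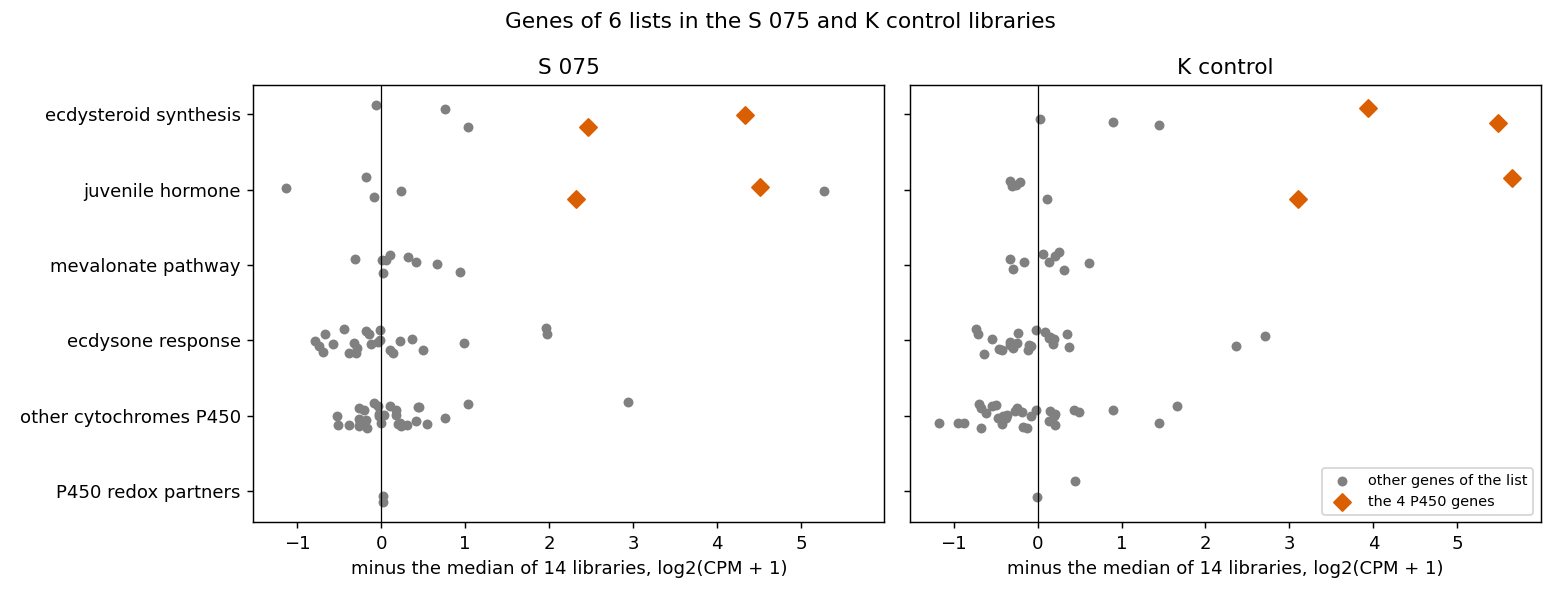
Genes of 6 lists in S 075 (left) and K control (right), as the difference from the median of the other 14 libraries in log2(CPM + 1), 1 point per gene, with the 4 P450 genes as diamonds. In K control the 4 lie between 3.10 and 5.65 above that median, apart from most other genes of their lists, and in S 075 a juvenile hormone esterase lies above them at 5.28.

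The genes most like each of the 4 in level came from outside these lists. Over 5464 described genes, likeness was measured by Pearson's r on log2(CPM + 1) in the 14 libraries, as a description over points that share colonies and depth. The genes most like the 2-hydroxylase were aminopeptidase N (XM_003402223.1, r = 0.97), delta24-sterol reductase (XM_003393107.1, r = 0.95) and 15-hydroxyprostaglandin dehydrogenase (XM_003398287.1, r = 0.94), followed by a GABA receptor beta subunit (XM_003402000.1) and OTU domain protein 4 (XR_132177.1), both at 0.94. The aminopeptidase had 167 CPM in S 075 and 334 CPM in K control, against 8.99 to 83.8 CPM in the other libraries. For LOC100647578 they were paired box protein 2 (XM_003395073.1, r = 0.95), polycomb RING finger protein 4 (XM_003400280.1, r = 0.94), PAX-interacting protein 1 (XM_003397124.1, r = 0.93), a serine/threonine kinase (XM_003397204.1) and LDL receptor-related protein 2 (XM_003402655.1), both at 0.92. For LOC100642209 they were a glucose transporter of the SLC2A8 type (XM_003400472.1, r = 0.88), aromatic L-amino acid decarboxylase (XM_003394181.1, r = 0.87), histone H3 (XM_003392921.1, r = 0.85), groucho (XM_003395940.1, r = 0.84) and the same kinase (r = 0.82). The transporter had 113 CPM in S 075 and 255 CPM in K control, against 0 to 7.99 CPM elsewhere. Under log2(RPKM + 1), 4 of the 5 genes were again among the 5 most like for the 2-hydroxylase, 5 for LOC100647578 and 4 for LOC100642209.

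The 5 genes most like CYP18A1 in the 14 libraries had r of 0.83 to 0.88, as high as those of LOC100642209. They were a putative methylase (XM_003397598.1, r = 0.88), a tRNA amidotransferase subunit (XM_003396701.1, r = 0.87), 3-hydroxyisobutyrate dehydrogenase (XM_003393436.1, r = 0.84), a lysosomal enzyme phosphotransferase (XM_003399825.1) and an inositol polyphosphate phosphatase (XM_003394427.1), both at 0.83. The methylase had 37.4 CPM in S 075 and 37.0 CPM in K control, against 22.1 to 46.3 CPM, and the other 4 also lay within their range of the 14 libraries in S 075 and K control. Under log2(RPKM + 1), 0 of the 5 were among the 5 most like CYP18A1, while all 5 were among the 20 most like it, as they were for each of the other 3 genes.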

How the data were processed

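The authors sequenced poly(A) RNA of pooled guts on an Illumina HiSeq, per the labels' protocols, and the submitters' processing notes name TopHat 1.9. How reads were counted, on which build and annotation, and whether strand was used, is not given in the sources used here. The deposited table holds read counts as whole numbers whose sums equal the header totals in 16 of 16 libraries (8.47 to 9.29 M reads, mean 8.85 ± 0.22 M). The deposited RPKM follow from count, length and total in all 151539 nonzero cells (relative tolerance 1e-06). A coverage column gives the percent of the transcript covered, per the file headers. The deposited KEGG hit score grades each annotation, and the 6569 genes with a score of at least 100 could be named. Low counts (1 to 9) were even in 69.1% of cases and higher ones (200 to 999) in 49.6%, so reads may not be independent fragments, which was not tested.

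The 4 genes, the lists, the tests and the 2 libraries left out were chosen with earlier results of these data known. Symbols and gene order came from a RefSeq table (iyBomTerr1.2) that matched 5155 records, all 4 genes included. No sequences were used here. The test was edgeR 4.0.16 in R 4.3.3 (TMM, filterByExpr by exposure, quasi-likelihood F-test, colony and exposure as factors, Benjamini-Hochberg over all genes kept, threshold 0.05). Over 14 libraries, without S 075 and K control, 8417 genes were tested (7 residual degrees of freedom, common biological coefficient of variation 0.232), and over 16, 8406 (9 degrees of freedom, 0.282), all 4 genes being kept in both. The replicate block is the colony named in the labels, which gave 4 libraries each. DESeq2 1.42.0 and limma 3.58.1 (trend, prior count 2) were alternatives, and the fits were first tested on simulated data. Single genes were also tested by exact permutation within the colonies whose control was kept, and relations between genes by 100000 permutations adjusted over 6 pairs. A count of 0 was taken to allow 3 reads, which covers counting error only. The p-values measure the spread between pooled libraries. Named beside the 4 genes were list members past the threshold, the 2 of each list highest in mean RPKM, and the 5 described genes most like each of the 4. CYP302A1, CYP307A, HMG-CoA reductase, the ecdysone receptor and NR4A2 were chosen after their values were seen.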

Additional observations from a re-analysis of the deposited data

Results flagged for a closer look

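Within groups of 4 libraries of the same exposure, single libraries stood apart by their gap to the nearest other library as a share of the range of the group in CPM, beyond Dixon's critical value, in 9 of 16 groups. In 6 of the 9 the library was S 075 or K control, whose high values chose the genes, so those 6 only describe the choice. The rate of about 1 in 20 groups that chance gives does not apply here, since the genes were chosen by their values and share libraries. The 2-hydroxylase (XM_003394564.1) stood apart in S 068 (0.855), S 161 (0.922) and K control (0.989). LOC100642209 (XM_003396659.1) did so in S 068 (0.844), S 075 (0.969) and K control (1.0). For CYP18A1 (XM_003400126.1) they were S 075 (0.858) and K control (0.954), and for LOC100647578 (XM_003396620.1) K control (0.969). The 3 that the choice did not use are S 068 for LOC100642209 and S 068 and S 161 for the 2-hydroxylase, all of them high.

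The difference of exposed libraries from their control was opposite in colony K and in another colony, with all 3 exposed libraries below the control in K and all 3 above it in the other, in 8 pairings. These differences were not tested, and all rest on the 1 control of colony K, whose high level chose the genes, so they restate it. Colony K minus colony S was -8.43 for LOC100642209, -5.45 for LOC100647578, -5.3 for CYP18A1 and -8.63 for the 2-hydroxylase, in log2(CPM + 1). Colony K minus colony T was -6.46 for LOC100642209 and -4.86 for LOC100647578. Colony K minus colony L was -4.16 for LOC100647578 and -6.14 for the 2-hydroxylase.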

How the results depend on the processing

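Of 820 values under alternatives, 731 kept their direction and side of the threshold, 12 lost it, 19 gained it, 33 reversed and 25 counts or values moved. Reversals came with the K control library in all cases but 2 kinds, named last. For exposed against control the log2 difference became -2.63 (16 libraries) and -2.57 (15, with K control) for LOC100642209, -0.03 and -0.03 for LOC100647578, -1.82 and -1.92 for CYP18A1, and -1.61 and -1.57 for the 2-hydroxylase. For genotype 068 it became -3.53 and -2.70, -0.30 and -0.21, -1.69 and -1.46, and -2.26 and -2.14 in the same order. For genotype 075 it became -0.61 and -1.89 for LOC100642209, -0.51 and -1.35 for CYP18A1, and -0.41 and -0.58 for the 2-hydroxylase. For genotype 161 it became -3.75 and -3.11 for LOC100642209, -0.17 and -0.03 for LOC100647578, and -2.15 and -1.98 for the 2-hydroxylase. In the within-colony permutation over 16 libraries the mean difference was -0.51 for LOC100642209, -0.72 for CYP18A1 and -0.02 for the 2-hydroxylase. The CYP18A1 difference for exposure also turned to -0.20 without S control, in a range of -0.20 to 0.88 over libraries left out, and to -0.21 without colony S.

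Of the 4 genes, DESeq2 called 2 for exposure, 2 for genotype 075 and 2 between colonies, against 0, 0 and 1 in edgeR. Without colony L edgeR called 1 for exposure (LOC100647578, 3.31, adjusted p = 0.0456), 2 for genotype 075 and 2 between colonies, where 7, 32 and 110 of all 8501 genes were called (0.0823%, 0.376% and 1.29%). That fit held S control and T control as its only controls, and LOC100647578 passed the count filter through exposed libraries. Its exposure call therefore supports nothing by itself. Without L 161 it called 2 for genotype 075 and 2 between colonies, of 10 and 119 of all 8406 genes. Leaving out 1 library at a time gave 0 to 2 calls for genotype 075 and 0 to 2 between colonies. Between colonies the calls were 0 over 16 libraries (0.464% of all genes called), 0 over 15 with K control (0.318%) and 0 in limma-trend (0.57%). They were also 0 without colony K (0.246%) and 0 without colony S (0.261%). Over 15 libraries with S 075 the calls were 2, among 128 of all 8467 genes (1.51%), in a fit that holds values by which the genes were chosen. The cause was not tested. Without the replicate block (the colony term) edgeR called 0 of the 4 for exposure or a genotype, with an exposure difference of 2.68 for LOC100647578 and 2.79 for the 2-hydroxylase. LOC100642209 did not pass the count filter without S 068, S 161 or colony S, so those fits hold no value for it. Its counts of 0 to 26 reads, and those of CYP18A1 of 0 to 20, limit what the 14 libraries can show.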

Other observations

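A juvenile hormone esterase record (XM_003397252.1), an enzyme type that breaks down juvenile hormone, had 145 CPM in S 075 and 3.07 CPM in K control, against 0.212 to 12.4 CPM in the other 14 libraries. Like the 4 genes it was above the other 14 libraries in S 075, but in K control it lay within their range. A family 4 cytochrome P450 (XM_003399563.1) had 2450 CPM in S 075 and 365 CPM in K control, against 44.1 to 1210 CPM, with T 075 second. Cholesterol 7-dehydrogenase (XM_003402343.1), the first step from sterols toward ecdysteroids in insects, had 0.653 CPM in S 075 and 2.18 CPM in K control, against 0 to 0.637 CPM. This last gene did not pass the count filter and had 44 reads over all libraries together. These 3 genes were chosen after their values were seen. In edgeR over 14 libraries the esterase and the family 4 P450 did not pass for genotype 075 against control, with log2 differences of 1.55 ± 1.08 (adjusted p = 0.812) and 2.99 ± 0.97 (adjusted p = 0.487).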
